A study of Mus musculus with 53 samples.

Results

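Immediate early and activity genes are the genes that a neuron switches on within minutes to hours of firing, and 42 of them were followed here among the 53379 genes of the count tables. The list holds AP-1, EGR, NR4A and KLF transcription factors, other activity-linked factors, synaptic and secreted products, and genes that feed back on signalling, and each symbol was mapped from its Ensembl identifier. The libraries were RNA-seq of 2 hypothalamic nuclei, the paraventricular nucleus (PVN) and the arcuate nucleus (ARC), cut by laser from cresyl violet stained sections of C57BL/6 mice. Nnat+/-p mice carry a paternal null allele of Nnat, an imprinted gene read from the father's copy, in which a lacZ cassette stands in place of exons 2 and 3, and Nnat+/+ mice are their wild type controls. They came from wild type mothers and heterozygous fathers, and no gene of the list was targeted.

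Of 53 libraries, 49 were used. In chow-fed males, 13 to 14 weeks old, the PVN was sampled in 3 libraries of Nnat+/+, 3 of Nnat+/-p that stayed non-obese and 4 of Nnat+/-p that became obese, and the ARC in 2, 4 and 4. In males given a 45% high-fat diet (HFD) from 4 weeks of age, the PVN was sampled in 6 Nnat+/+ and 3 Nnat+/-p libraries and the ARC in 6 and 4. In chow-fed adult females only the PVN was sampled, in 4 libraries of Nnat+/+ and in 3 of each weight class of Nnat+/-p. Non-obese meant under 35 g and obese over 37 g in males, and under 25 g and over 30 g in females. The labels do not say that each library is a separate mouse, so p-values measure the spread between these libraries. Libraries 39 and 40, both of non-obese Nnat+/-p ARC, share a labelled weight of 34.3 g and may be 1 mouse. Library 39 was the shallowest used, at 1479953 counts. Female Nnat+/+ libraries 1 and 2 share a labelled weight of 24.1 g. In bulk tissue of this kind, fewer cells of a type and less RNA per cell cannot be told apart.

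Neuronal firing and calcium entry activate kinases that phosphorylate factors already sitting on DNA, such as CREB and the serum response factor, and these switch on the immediate early genes without new protein synthesis. Many products of these genes are themselves transcription factors, which go on to set later genes, and others act at synapses or dampen the signal that induced them. In the PVN, Fos staining is widely used as a mark of neurons that responded to feeding, fasting or stress.

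Total counts ran from 2268021 to 8560199 in male PVN libraries, 6219365 to 30228973 in female PVN libraries and 1479953 to 18058097 in ARC libraries. Nnat itself lay at 270 to 572 CPM (the usual scaling of a gene's reads to a common library total, here with edgeR's TMM factors) in the 21 Nnat+/+ libraries and at 0.324 to 13.6 CPM in the 28 Nnat+/-p libraries, without overlap. The summed level of 5 PVN neuron markers (Sim1, Avp, Oxt, Crh and Trh) was 505 to 1970 CPM in 17 male PVN libraries, 1390 to 3440 CPM in female PVN and 8.98 to 71.2 CPM in ARC. The other male PVN libraries stood apart. Library 15, a chow-fed Nnat+/+ library, had 10.1 CPM of these markers with Pomc at 101 CPM, and library 24, an HFD-fed Nnat+/+ library, had 146 CPM. Fold changes of members that rest on libraries 15 or 24 are also given without them, but those of marker genes are not. In ARC libraries, 4 ARC neuron markers (Agrp, Npy, Pomc and Tbx3) summed to 46.7 to 647 CPM, except in library 43. That library, of non-obese chow-fed Nnat+/-p, had 12.1 CPM, with Pomc at 2.43 CPM. No fold change is given without library 43 alone, and its part in the ARC values was not tested.

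To show the control regions of the list, the 250 bases before the RefSeq transcript start were read from the GRCm38.p6 promoter table for 34 of the 42 members. These members had 47 windows, and the 27025 genes with a window had 32851. A gene was counted when any of its windows held the motif. The part of window number in the shares was not tested. The CRE core TGACG is the shorter part of the cyclic AMP response element TGACGTCA at which CREB binds. It was found on either strand in 22 of 34 members, or 64.7%, against 19.8% of 27025 genes. The full element TGACGTCA, which also contains the core, was in 4 members (Btg2, Dusp1, Maff and Plk2), or 11.8% against 1.77%. The serum response element was in 3 (Dusp5, Egr2 and Srf), or 8.82% against 1.62%, and the TATA box TATAAA in 6, or 17.6% against 14.3%. The EGR motif GCGTGGGCG was in 1 member (Maff), or 2.94% against 0.622%. Neither the AP-1 motif TGACTCA nor the NR4A motif AAAGGTCA was in a member's window, against 5.16% and 1.55% of genes. The members' windows were rich in G and C, with a median of 62.0% against 52.4% over all windows, and 17 against 6 CpG pairs. The part of base composition in these shares was not tested. A set of 4 windows follows, each 5′ to 3′ on the gene's strand with motif matches in capitals. Fosl2, Egr4, Dusp5 and Nr4a2 are shown, and the last 2 also took part in the diet and nucleus results below. Ranked by the lowest r of the 3 tables with the mean of the other members, they come first among members with a single window. They lie at chr5:32136222-32136471 (plus strand), chr6:85513590-85513839 (minus), chr19:53528895-53529144 (plus) and chr2:57124004-57124253 (minus).
Fosl2: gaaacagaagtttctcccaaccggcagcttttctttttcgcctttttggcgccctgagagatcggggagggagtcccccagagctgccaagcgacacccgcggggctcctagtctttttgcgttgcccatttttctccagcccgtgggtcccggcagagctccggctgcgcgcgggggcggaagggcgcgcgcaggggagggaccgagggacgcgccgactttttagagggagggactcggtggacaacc
Egr4: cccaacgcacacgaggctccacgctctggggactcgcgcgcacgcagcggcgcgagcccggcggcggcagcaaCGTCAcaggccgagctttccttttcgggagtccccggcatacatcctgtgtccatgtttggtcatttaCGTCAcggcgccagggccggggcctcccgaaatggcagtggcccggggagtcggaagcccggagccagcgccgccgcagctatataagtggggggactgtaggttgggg
Dusp5: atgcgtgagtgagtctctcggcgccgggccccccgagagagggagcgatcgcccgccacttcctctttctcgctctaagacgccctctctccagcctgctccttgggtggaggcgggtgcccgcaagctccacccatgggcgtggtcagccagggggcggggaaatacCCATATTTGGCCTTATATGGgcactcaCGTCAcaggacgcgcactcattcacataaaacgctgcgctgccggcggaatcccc
Nr4a2: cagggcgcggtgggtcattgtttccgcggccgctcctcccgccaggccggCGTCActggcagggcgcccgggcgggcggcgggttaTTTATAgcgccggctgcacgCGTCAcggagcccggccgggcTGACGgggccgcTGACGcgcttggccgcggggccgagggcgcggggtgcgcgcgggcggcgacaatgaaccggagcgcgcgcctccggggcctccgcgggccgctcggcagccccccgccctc
The Fosl2 window held no motif searched for. That of Egr4 held CRE cores 177 and 109 bases before the start. In the Dusp5 window, adjoining serum response elements began 82 and 72 bases before the start and a CRE core 55 bases before it. The Nr4a2 window held CRE cores at 200, 144, 123 and 111 bases and a TATA box on the reverse strand at 164 bases before the start. A match is a run of letters, not a measured binding site.

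Levels differed widely between members. Per kilobase of exon, the highest mean level over the 49 libraries was that of Jund, an AP-1 partner present without stimulation, at 45.3 CPM per kb. Jun followed at 17.5, Rgs2, which speeds the shut-off of G protein signalling, at 15.1, Egr1 at 9.02, the kinase Plk2 at 8.38 and Fos at 7.97 CPM per kb. At the low end lay Ptgs2, the inducible cyclooxygenase, at 0.143 and Egr2 at 0.315 CPM per kb. All members but Ptgs2 averaged at least 1 CPM, and these 41 form the module mean used below. A count of 0 in at least 1 library was seen for 19 members, and 23 were never at 0. For 7 members (Jun, Junb, Jund, Crem, Bdnf, Dusp1 and Dusp5) an exon overlaps a gene on the opposite strand, and as the strand setting of the counting is not given in the sources used here, their counts may include reads of that neighbour.

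The module mean, the average of log2 CPM (prior count 2) over 41 members, summarises the list in each library and is given as a description without a test. In the chow-fed female PVN it was 2.40 ± 0.32 (SD, n = 4) in Nnat+/+, 2.56 ± 0.979 (n = 3) in non-obese Nnat+/-p and 3.45 ± 0.507 (n = 3) in obese Nnat+/-p. The obese libraries, at 2.98 to 3.99, all lay above the Nnat+/+ libraries, at 2.00 to 2.72, while the non-obese ones spanned both at 1.83 to 3.68. In the chow-fed male PVN it was 2.96 ± 0.341 in Nnat+/+, 3.00 ± 0.503 in non-obese and 3.21 ± 0.28 in obese Nnat+/-p libraries, with overlapping ranges. The lowest Nnat+/+ module mean there, 2.57, was that of library 15, which had few PVN markers, against 3.12 and 3.19 in the others. In the chow-fed ARC it was 2.41 ± 0.269 (n = 2), 2.64 ± 0.32 (n = 4) and 2.84 ± 0.174 (n = 4), and the obese libraries, from 2.64 to 3.01, lay above both Nnat+/+ libraries, at 2.22 and 2.60. On HFD it was 2.81 ± 0.265 in Nnat+/+ and 2.85 ± 0.175 in Nnat+/-p PVN, and 2.60 ± 0.171 in Nnat+/+ and 2.25 ± 0.185 in Nnat+/-p ARC. The HFD-fed Nnat+/-p ARC libraries, at 2.00 to 2.43, were all below the obese chow-fed Nnat+/-p ARC libraries.

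The mean over all 15198 genes that averaged at least 1 CPM also varied between groups, from 2.94 to 3.40, so the module mean was set against it in each library. The difference was -0.737 ± 0.221 in Nnat+/+, -0.373 ± 0.646 in non-obese and 0.29 ± 0.371 in obese female PVN. The female obese and Nnat+/+ ranges did not overlap on this scale either, with -0.0415 to 0.691 against -0.946 to -0.521. In the ARC it was -0.433 ± 0.163 in obese chow-fed and -1.0 ± 0.0638 in HFD-fed Nnat+/-p libraries, again apart.

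**Figure D1:**
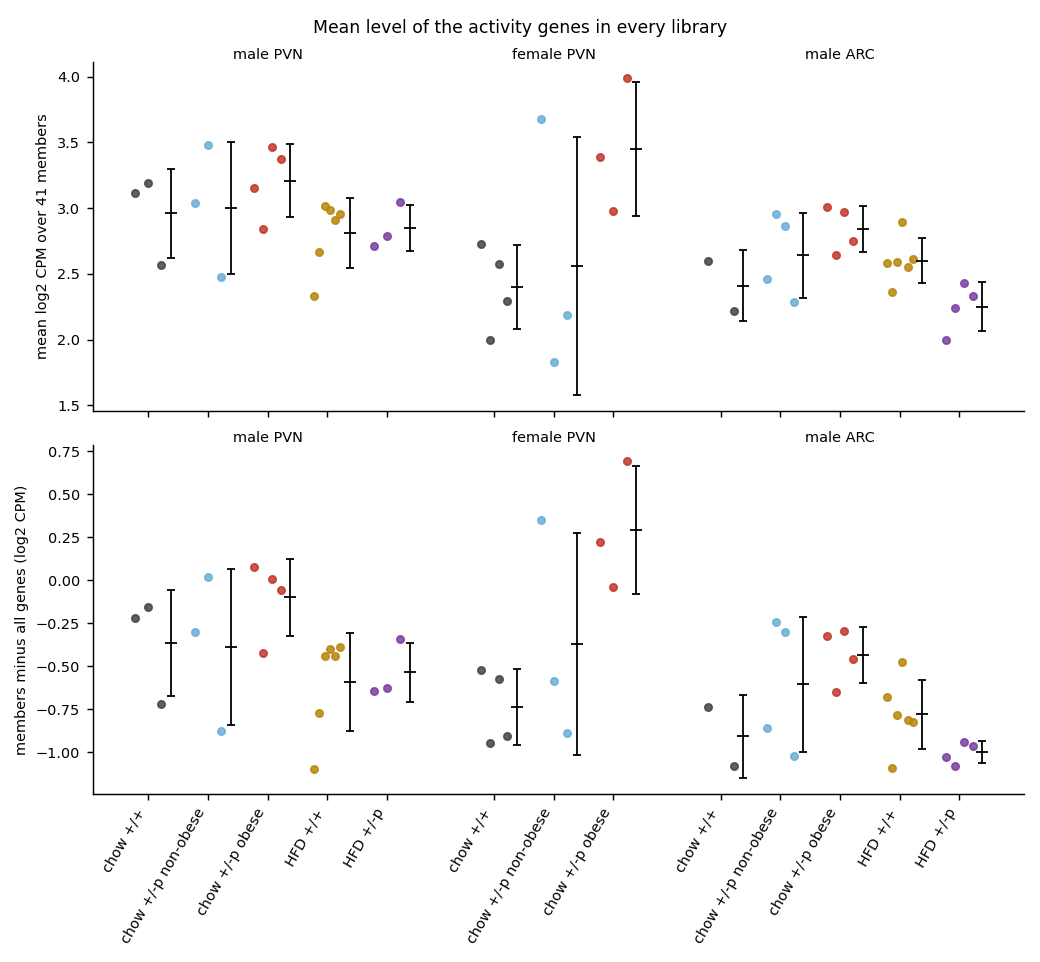
Module mean of 41 activity genes in each of 49 libraries (upper axis, mean log2 CPM) and the same minus the mean of all genes in that library (lower axis, log2), by nucleus, sex, diet, genotype and weight class. Points are libraries and bars are group mean ± SD. Female obese Nnat+/-p libraries, 2.98 to 3.99 on the upper axis, lie above the female Nnat+/+ libraries, 2.00 to 2.72.

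The first comparisons asked whether loss of the paternal Nnat allele, with or without obesity, went with other levels of activity genes in chow-fed males. In the male PVN, no member passed an adjusted p of 0.25 (edgeR quasi-likelihood test, Benjamini-Hochberg over all 15618 genes tested), in any of 3 pairings that share their groups, and 41 members were tested as Atf3 was too low. Nr4a1, an orphan nuclear receptor induced by calcium and cyclic AMP, had the smallest p for obese Nnat+/-p against Nnat+/+. It lay at 51.0, 7.59, 11.0 and 17.0 CPM in obese Nnat+/-p, at 6.78, 3.74 and 3.86 in Nnat+/+ and at 12.5, 7.97 and 6.76 in non-obese Nnat+/-p. Every obese library was above every Nnat+/+ library, and the non-obese libraries lay between or among them. For Nr4a1 this was a log2 fold change of 2.14 (SE 0.607, unadjusted p = 0.00166, adjusted p = 0.997, edgeR), which ran from 1.31 to 2.48 over 13 other settings and was 2.03 without library 15.

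Crtc1, the coactivator that carries calcium and cyclic AMP signals to CREB, had the next smallest p. It was at 52.2, 58.2 and 126 CPM in Nnat+/+ and at 23.7, 50.4, 37.6 and 42.0 in obese Nnat+/-p. The groups did not overlap, and the highest value, 126, was in library 15, the Nnat+/+ library with few PVN markers. For Crtc1 the log2 fold change was -1.03 (SE 0.31, adjusted p = 1.00, edgeR) and -0.52 (SE 0.323) without library 15. Srf, the serum response factor, ran the same way, from 19.0, 26.9 and 37.3 CPM in Nnat+/+ to 15.8, 15.7, 12.4 and 16.7 in obese and 12.2, 7.61 and 6.76 in non-obese libraries. For non-obese Nnat+/-p against Nnat+/+ the smallest p were those of Srf, with a log2 fold change of -1.63 (SE 0.437, unadjusted p = 0.000998, edgeR), and Crtc1, with -0.94 (SE 0.336, unadjusted p = 0.0096, edgeR), and both missed the adjusted threshold. Without library 15 these were -1.36 (SE 0.524) for Srf and -0.43 (SE 0.344) for Crtc1. The summed level of forebrain excitatory neuron markers was also lower on average in Nnat+/-p, but single markers differed in direction. Tbr1 was at 5.25, 5.18, 13.9 and 12.2 CPM in obese libraries and at 4.75, 3.15 and 4.7 in Nnat+/+. The 6 of that list summed to 134, 450 and 627 CPM in Nnat+/+ male PVN, the last in library 15, against 109 to 240 in obese and 125 to 227 in non-obese Nnat+/-p. Of 5 tested, Nrgn was called lower by edgeR in both Nnat+/-p groups, and the median log2 fold changes of the list were -1.15 and -0.928. Nrgn was at 15.1, 46.0 and 233 CPM in Nnat+/+, the last in library 15, and at 6.01 to 21.1 in Nnat+/-p. The call and the medians are not given without library 15. The part of these markers in the Crtc1 and Srf values was not tested.

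Fos, the AP-1 subunit most used as an activity mark, lay at 46.3, 12.6, 30.1 and 30.6 CPM in obese, 27.5, 7.97 and 7.51 in non-obese and 10.4, 27.5 and 14.8 in Nnat+/+ male PVN. All groups overlapped. Npas4, a factor induced by calcium entry alone, was at 34.6 CPM in 1 obese library and at 2.24, 6.94 and 2.03 in the others, against 8.59, 16.1 and 4.37 in Nnat+/+. Library 16, from an obese Nnat+/-p male, had the highest male PVN value of Fos, Nr4a1 and Npas4. Arc, an activity-induced regulator of synaptic receptors, was at 14.6, 8.46, 11.0 and 14.4 CPM in obese against 4.97, 8.65 and 3.36 in Nnat+/+ libraries, which overlapped.

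As a list, the 41 members tested had a median log2 fold change of 0.464 for obese Nnat+/-p against Nnat+/+, beside -0.0138 over all genes, and 28 (68.3%) were above 0, beside 49% of all genes. No member was called, against 0.0256% of all genes, and 6 (4 higher, 2 lower) reached an unadjusted p of 0.05, against 3.52% of all genes. DESeq2 called 1 member and limma-voom 0. The median depended on single libraries and was 0.173 without library 15 and 0.729 without library 14. For non-obese against Nnat+/+ the median was 0.149 beside -0.0062, with 0 called (0.0128% of all genes) and 4 at unadjusted p under 0.05 (2.56% of all genes), 1 higher and 3 lower, and it was -0.0135 without library 15 and -0.224 without library 19. For obese against non-obese it was 0.368 beside -0.00427, with 0 called (0% of all genes) and 3 at unadjusted p under 0.05, all higher (1.66% of all genes). The 2 smallest p there were those of Fos, with a log2 fold change of 1.03 (SE 0.489, unadjusted p = 0.0446, adjusted p = 1.00, edgeR), and Jund, at 0.59 (unadjusted p = 0.0465, edgeR), followed by Nr4a1 at 1.21. DESeq2 and limma-voom called 0 members in either of these pairings. The last median was 0.0729 without library 20 and 0.689 without library 19.

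The same question in the chow-fed female PVN gave the highest list median of the chow-fed comparisons. Fosl2, an AP-1 subunit, had the smallest p, and it lay at 140, 53.6 and 107 CPM in obese Nnat+/-p, 137, 33.0 and 52.4 in non-obese Nnat+/-p and 38.8, 13.5, 22.0 and 41.3 in Nnat+/+. Every obese library was above every Nnat+/+ library, and the non-obese group overlapped both. The log2 fold change was 1.76 for obese against Nnat+/+ (SE 0.465, unadjusted p = 0.00157, adjusted p = 1.00, edgeR) and 1.32 for non-obese against Nnat+/+ (SE 0.463, unadjusted p = 0.0114, adjusted p = 1.00, edgeR).

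Egr1, a zinc finger factor induced through the serum response element, was at 126, 116 and 208 CPM in obese, 88.6, 69.3 and 14.2 in non-obese and 73.0, 32.2, 55.9 and 5.60 in Nnat+/+ female PVN. Obese and Nnat+/+ libraries did not overlap, and the log2 fold change was 1.79 (SE 0.633, unadjusted p = 0.0119, edgeR). Nr4a1 was at 25.8, 43.3 and 78.3 CPM in obese, 11.1, 13.4 and 1.46 in non-obese and 14.7, 0.273, 16.2 and 2.41 in Nnat+/+ libraries. The obese group again stood above both others, with a log2 fold change of 2.5 against Nnat+/+ (SE 0.944, edgeR) and 2.46 against non-obese (SE 1.05, unadjusted p = 0.0318, edgeR).

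Arc was at 26.1, 21.3 and 42.1 CPM in obese and at 20.6, 0.273, 4.78 and 2.19 in Nnat+/+ female PVN. Bdnf, the neurotrophin whose deficiency causes overeating in mice, was at 41.6, 18.4 and 21.9 in obese and at 8.51, 1.64, 6.47 and 12.8 in Nnat+/+ libraries. For both genes every obese value was above every Nnat+/+ value. Fos, Fosb and Npas4 overlapped between these groups through low values in other obese libraries, although each was highest in library 12, from an obese female. Fos was at 26.1, 11.2 and 159 CPM in obese and at 19.2, 0.41, 25.1 and 7.05 in Nnat+/+. Fosb was at 22.8, 0.956 and 45.6 CPM in obese and at 2.5, 0.137, 0 and 3.79 in Nnat+/+, so that 1 obese library lay within the Nnat+/+ range. Npas4 was at 4.03, 6.47 and 56.8 CPM in obese and at 1.09, 4.78, 7.31 and 0.0742 in Nnat+/+, and 2 obese libraries lay within that range. Junb, a further AP-1 subunit, was at 16.6, 27.0 and 59.6 CPM in obese, 11.1, 0 and 2.96 in non-obese and 15.1, 15.6, 3.09 and 8.46 in Nnat+/+ libraries. It had the smallest p for obese against non-obese, with a log2 fold change of 2.88 (SE 1.11, unadjusted p = 0.019, adjusted p = 1.00, edgeR).

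Over the 40 members tested in females, all but Egr2 and Ptgs2, the median log2 fold change for obese Nnat+/-p against Nnat+/+ was 0.703, beside -0.0509 over all 15485 genes, and 32 members (80%) were above 0, beside 46.9% of all genes. None was called (0.0129% of all genes), and 8, all higher, reached an unadjusted p of 0.05 (3.18% of all genes). These were Fos, Fosb, Fosl2, Egr1, Nr4a1, Npas4, Arc and Bdnf. DESeq2 called 1 member and limma-voom 2. Leaving out 1 library at a time, the number at unadjusted p under 0.05 ran from 2 to 10, and the median was 0.43 without library 12 and 0.793 without library 2. For non-obese against Nnat+/+ the median was 0.205 beside -0.0876, with 0 called (0.00646% of all genes) and 1 at unadjusted p under 0.05 (4% of all genes), Fosl2. That median was -0.17 without library 9 and 0.41 without library 10. For obese against non-obese it was 0.515 beside 0.0563, with 0 called (0% of all genes) and 3, all higher, at unadjusted p under 0.05 (3.06% of all genes). It was 0.044 without library 12 and 1.01 without library 9. DESeq2 and limma-voom called 0 members in these last pairings, which share libraries with the first.

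Other measures moved with the female groups. Library 10, a non-obese Nnat+/-p library, had 39.3% of counts on mitochondrial genes and 12898 genes detected, the fewest in females, against 19707 in library 9 of the same group. The summed level of 5 pan-neuronal markers was 1040 to 1130 CPM in obese and 575 to 997 in Nnat+/+ libraries. The 7 heat shock genes summed to 1160 to 1580 CPM in obese and 651 to 1220 in Nnat+/+ libraries, and 5 astrocyte markers to 1040 to 1340 and 757 to 1160. Endothelial and mural markers (7) summed to 242 to 284 CPM in obese and 267 to 337 in Nnat+/+. The part of these measures in the result was not tested.

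The remaining activity marks followed in every library gave a mixed picture in females. Btg2 was at 17.2, 17.4 and 76.8 CPM in obese, 19.6, 7.23 and 0.323 in non-obese and 14.4, 1.64, 13.7 and 4.94 in Nnat+/+ female PVN, so obese and Nnat+/+ were apart. Dusp1, a phosphatase that switches off stress kinases, was at 13.3, 9.12 and 28.1 CPM in obese and 5.19, 5.87, 20.7 and 4.16 in Nnat+/+ libraries, which overlapped. Homer1 and Egr3 overlapped too, with Homer1 at 28.5, 8.90 and 26.9 CPM in obese against 17.3, 9.84, 33.7 and 15.5 in Nnat+/+, and Egr3 at or below 3.00 CPM in all female libraries.

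**Figure D2:**
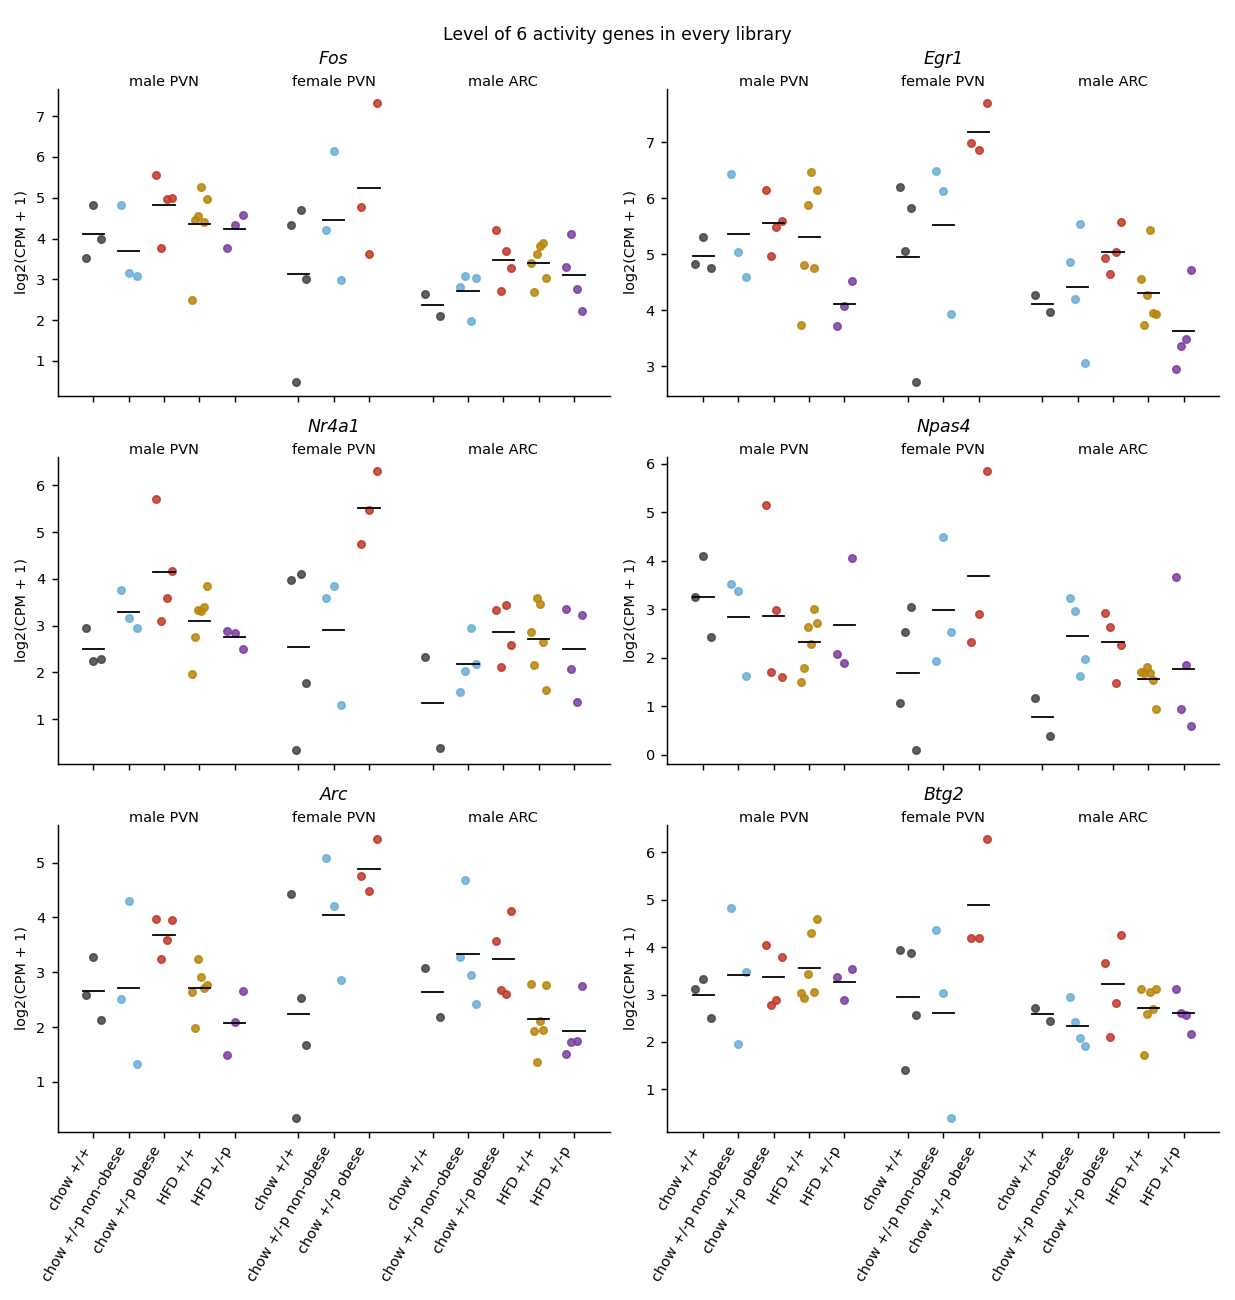
Levels of Fos, Egr1, Nr4a1, Npas4, Arc and Btg2 in each library, as log2(CPM + 1), by group. Points are libraries and bars are group means of the log values. In female obese Nnat+/-p PVN, Egr1 (116 to 208 CPM) and Nr4a1 (25.8 to 78.3 CPM) lie above all female Nnat+/+ libraries, and 1 library of that group holds the highest Fos, at 159 CPM.

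In the chow-fed male ARC the Nnat+/+ group had only 2 libraries. Npas4 was at 1.24 and 0.297 CPM there, at 8.45, 6.83, 2.08 and 2.91 in non-obese and at 6.53, 5.20, 1.78 and 3.78 in obese Nnat+/-p libraries. All Nnat+/-p libraries of both weight classes were above both Nnat+/+ libraries. The log2 fold change was 2.66 for non-obese (SE 1.10, unadjusted p = 0.0237, edgeR) and 2.44 for obese Nnat+/-p (SE 1.09, unadjusted p = 0.0352, edgeR), with the same 2 controls in each. Egr1 was at 29.7, 24.1, 31.8 and 46.5 CPM in obese, 28.2, 17.4, 45.5 and 7.29 in non-obese and 18.2 and 14.6 in Nnat+/+ ARC. The obese group alone stood clear of Nnat+/+, with a log2 fold change of 0.99 (SE 0.476, unadjusted p = 0.0478, edgeR). Fos, at 17.5, 5.61, 12.0 and 8.74 CPM in obese and 5.26 and 3.27 in Nnat+/+ libraries, also did not overlap.

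The 41 members tested, all but Ptgs2, had a median log2 fold change of 0.365 for obese against Nnat+/+, beside 0.0247 over all 14658 genes, with 32 (78%) above 0, beside 52.4% of all genes. None was called (0.0205% of all genes), and 3, all higher, reached an unadjusted p of 0.05 (2.59% of all genes). For non-obese against Nnat+/+ the median was 0.341 beside 0.0273, with 0 called (0.0136% of all genes) and 1 at unadjusted p under 0.05 (1.9% of all genes). For obese against non-obese it was 0.141 beside -0.00567, with 0 called (0.00682% of all genes) and 2, both higher, at unadjusted p under 0.05 (4.25% of all genes). They were Srf, with a log2 fold change of 0.65 (unadjusted p = 0.0385, edgeR), and the antiproliferative gene Btg2, with 1.19 (unadjusted p = 0.0435, edgeR). DESeq2 and limma-voom called 0 members in each ARC pairing on chow. Without 1 library the first median ran from 0.235 to 0.737, and the last was -0.00734 without library 38. ARC neuron markers (4 measured) summed to 124 to 168 CPM in obese, 12.1 to 117 in non-obese and 46.7 to 54.6 in Nnat+/+ libraries. The lowest, 12.1, was in library 43. The part of these markers in the members' values was not tested.

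**Figure D3:**
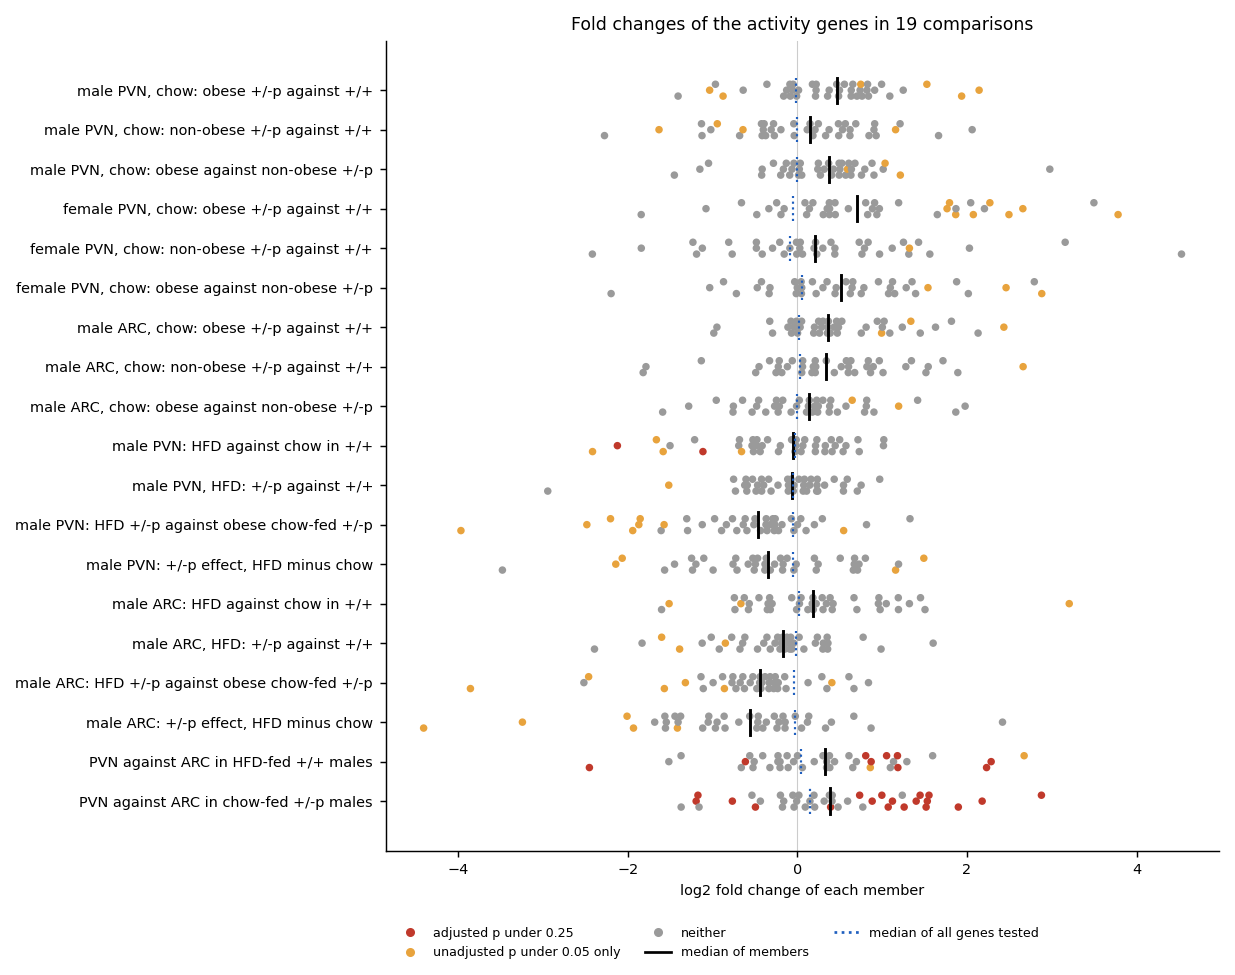
Log2 fold change of each member tested (horizontal axis, edgeR) in 19 comparisons. Red points passed adjusted p 0.25, orange points only an unadjusted p of 0.05 and grey points neither, the black mark is the median of the members and the dotted blue mark that of all genes tested. Red points appear for HFD against chow in Nnat+/+ male PVN (2 members) and in the comparisons of PVN with ARC (9 and 19 members).

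The next comparisons asked about diet. In the male Nnat+/+ PVN, Srf and Dusp5 were called lower on HFD, Srf only with library 15 in the fit. Srf was at 19.0, 26.9 and 37.3 CPM on chow and at 9.91 to 22.7 CPM on HFD, with a median of 12.1. Library 27 alone, at 22.7, reached the chow range. The log2 fold change was -1.11 (SE 0.303, adjusted p = 0.14, edgeR), and without library 15 it was -0.82 (SE 0.359, adjusted p = 0.32, edgeR) and not called. Dusp5, a nuclear phosphatase that switches off ERK, was at 10.8, 9.44 and 7.39 CPM on chow and at 0.975 to 4.92 on HFD, with a median of 1.78. The diets did not overlap, and the log2 fold change was -2.12 (SE 0.635, adjusted p = 0.191, edgeR). It was -2.24 (adjusted p = 0.162, edgeR) without library 15 and -1.99 (adjusted p = 0.263, edgeR) without library 24, which ended the call. For both genes a window searched holds a serum response element, as shown for Dusp5. Egr2, the other member with this element, was not called. A link of the element to the diet values was not tested. Markers of other neurons were called lower on HFD in the same comparison, namely Nrgn and Slc17a7 of 5 forebrain excitatory markers tested, Pomc of 3 ARC markers and Rbfox3 of 5 pan-neuronal markers. Library 15 held the highest chow values of Pomc, 101 CPM against 0.678 and 4.13, and of Nrgn, 233 CPM against 15.1 and 46.0. It had 0 CPM of Slc17a7. The calls of these markers are not given without library 15. Forebrain excitatory markers summed to 134, 450 and 627 CPM on chow, the last in library 15, and 162 to 248 on HFD. The part of all these markers in the Srf and Dusp5 values was not tested.

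Of the 42 members tested in this diet comparison, 2 were called, or 4.76%, against 1.43% of all 17576 genes, and 6, all lower, reached an unadjusted p of 0.05 (14.3%) against 10.3% of all genes. The other 4 were Fosb, Egr3, Crtc1 and Inhba. The member median was -0.0483 beside -0.0324 over all genes, and 18 members (42.9%) were above 0, beside 47.5% of all genes. Without library 15 the member median was -0.208. DESeq2 called 3 members and limma-voom 2. The number called was 4 without library 15, 4 without libraries 15 and 24, 4 without library 14, 1 without library 13, 23, 24 or 25, and 0 without library 26 or 28. The adjusted p of Srf ran from 0.0425 to 0.38 and that of Dusp5 from 0.0352 to 0.378 over the settings tried.

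Between genotypes on HFD, Egr1 had the smallest p in the PVN and was at 12.1, 15.8 and 22.0 CPM in Nnat+/-p, against 12.3 to 88.0 in Nnat+/+ with a median of 42.6. The groups overlapped through the lowest Nnat+/+ value, and the log2 fold change was -1.52 (SE 0.435, unadjusted p = 0.00139, adjusted p = 1.00, edgeR), or -1.63 without library 24. No member was called (0.00569% of all genes), and Egr1 was the 1 member at unadjusted p under 0.05 (0.99% of all genes), with a list median of -0.0621 beside -0.0497. DESeq2 and limma-voom called 0.

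HFD-fed Nnat+/-p PVN was also set against obese chow-fed Nnat+/-p PVN, where Nr4a1 and Egr1 had the smallest p. Nr4a1 was at 6.42, 6.21 and 4.67 CPM on HFD, below all 4 obese chow-fed libraries (7.59 to 51.0), with a log2 fold change of -1.94 (SE 0.544, adjusted p = 0.294, edgeR). Egr1, at 12.1 to 22.0 against 69.8, 30.2, 44.0 and 47.6 CPM, did not overlap either, with -1.57 (SE 0.46, adjusted p = 0.356, edgeR). Of 42 members, 8 (19%) had a fold change above 0, beside 45.3% of all genes, and the median was -0.467, beside -0.056. None was called (0.262% of all genes), while 8 (1 higher, 7 lower) reached an unadjusted p of 0.05 (7.53% of all genes), and DESeq2 called 4 and limma-voom 2. Without library 17, 1 member was called. Total counts were 6667729 to 7834090 in the HFD-fed and 3477384 to 5041309 in the obese chow-fed Nnat+/-p PVN libraries, without overlap. The part of depth in these values was not tested. The genotype effect on HFD minus that on chow had no called member (0% of all genes), and 4 (2 higher, 2 lower) were at unadjusted p under 0.05 (3.85% of all genes). Egr1, at -2.14 (SE 0.597, unadjusted p = 0.00106, edgeR), and Crtc1, at 1.16 (SE 0.331, unadjusted p = 0.00137, edgeR), had the smallest p. Without library 15 these were -2.04 for Egr1 and 0.64 (SE 0.321) for Crtc1. The list median of that difference was -0.343 beside -0.0479, or -0.162 without library 15, and DESeq2 and limma-voom called 0.

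In the ARC, Nr4a2, a nuclear receptor of the same family as Nr4a1, was at 2.16 and 0 CPM in chow-fed Nnat+/+, at 5.85 to 14.9 in HFD-fed Nnat+/+ with a median of 10.7, at 1.53, 2.31, 5.74 and 3.68 in HFD-fed Nnat+/-p and at 3.09, 6.44, 4.58 and 1.65 in obese chow-fed Nnat+/-p. The HFD-fed Nnat+/+ libraries were above both chow-fed Nnat+/+ libraries and above all HFD-fed Nnat+/-p libraries. Its log2 fold change was 3.21 for HFD against chow in Nnat+/+ (SE 1.03, adjusted p = 0.279, edgeR), a value that ran from 2.23 to 8.54 over 15 other settings, as 1 of the 2 controls was at 0, and -1.60 for Nnat+/-p against Nnat+/+ on HFD (SE 0.666, unadjusted p = 0.0224, edgeR). Bdnf was at 9.59 and 18.4 CPM on chow and 1.81 to 8.83 on HFD in Nnat+/+, without overlap, with -1.51 (SE 0.499, adjusted p = 0.294, edgeR). Trib1, a pseudokinase that promotes protein degradation, was at 5.01 to 13.0 CPM in HFD-fed Nnat+/+ and 3.36, 0.462, 4.69 and 4.02 in HFD-fed Nnat+/-p ARC. The Trib1 values did not overlap, and the log2 fold change was -1.39 (SE 0.518, unadjusted p = 0.0118, edgeR).

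Of 41 members tested over 15753 genes, none was called for HFD against chow in Nnat+/+ ARC (1.16% of all genes), and 3 (1 higher, 2 lower) were at unadjusted p under 0.05 (8.54% of all genes). The median was 0.183 beside 0.0169. DESeq2 called 0 and limma-voom 3, and 2 were called without library 45 and 1 without library 47. Other cell markers moved with this comparison, as Tbx3 of 4 ARC markers and Gfap of 5 astrocyte markers were called higher on HFD. Their part in the members' values was not tested. For Nnat+/-p against Nnat+/+ on HFD none was called (0.0127% of all genes) and 3, all lower, were at unadjusted p under 0.05 (4.54% of all genes), with a median of -0.174 beside -0.0193 and 0 calls by DESeq2 or limma-voom. Oligodendrocyte markers (5) summed to 549 to 826 CPM in HFD-fed Nnat+/-p and 265 to 679 in HFD-fed Nnat+/+ ARC, and microglia markers (5) to 98.1 to 104 and 73.6 to 98.9. Their part was not tested.

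For HFD-fed against obese chow-fed Nnat+/-p ARC, Dusp5 was at 0, 0.923, 0.521 and 0 CPM on HFD and at 2.40, 2.49, 3.56 and 10.6 on chow. Egr1 was at 6.72, 9.23, 10.2 and 25.3 CPM on HFD against 24.1 to 46.5 on chow, with a log2 fold change of -1.32 (SE 0.429, adjusted p = 0.283, edgeR). Dusp5 did not overlap between the diets and Egr1 overlapped by 1 library. None of 41 members was called (1.27% of all genes), and 6 (1 higher, 5 lower) were at unadjusted p under 0.05 (8.89% of all genes). The median was -0.44 beside -0.0354, and 7 members (17.1%) were above 0, beside 46.3% of all genes. DESeq2 called 2 and limma-voom 0, and 1 was called without library 37 and 2 without library 53. Cell markers moved with this comparison, as Tbx3 of 4 ARC markers and Oxt of 5 PVN markers were called higher on HFD. ARC neuron markers summed to 181 to 370 CPM on HFD and 124 to 168 in obese chow-fed libraries, without overlap. Their part in the members' values was not tested. The genotype effect on HFD minus that on chow gave 0 called members (0.0127% of all genes) and 5, all lower, at unadjusted p under 0.05 (3.83% of all genes), with the smallest p for Nr4a2 at -3.24 (SE 1.19, unadjusted p = 0.0107, edgeR), which ran from -8.58 to -2.26 over 27 other settings, and Trib1 at -2.01 (unadjusted p = 0.022, edgeR). Its median was -0.562 beside -0.031, and DESeq2 and limma-voom called 0. The chow-fed groups on which these differences rest also enter the chow comparisons above.

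Most of the members called were called between the nuclei. Each nucleus has its own count table, so nucleus and sequencing pool cannot be told apart. In HFD-fed Nnat+/+ males 9 of 42 members were called, or 21.4%, against 6.95% of all 21400 genes, and 11 (26.2%) reached an unadjusted p of 0.05, against 12.6%. In chow-fed Nnat+/-p males, with both weight classes averaged, 19 of 42 were called, or 45.2%, against 31.2%, and 17 (40.5%) reached an unadjusted p of 0.05, against 26.3%. The median log2 fold change of PVN over ARC was 0.323 beside 0.0422 in the first and 0.385 beside 0.148 in the second. These comparisons share no library with each other, though they come from 1 fit.

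Cell markers differed between the nuclei as well. Of 7 endothelial and mural markers 6 were called higher in PVN in both comparisons, with median log2 fold changes of 0.993 and 0.96, and summed to 135 to 407 CPM in PVN and 111 to 176 in ARC of HFD-fed Nnat+/+ males. Of 5 astrocyte markers 3 were called lower in PVN in both, of 5 microglia markers 1 and 3, and of 5 oligodendrocyte markers 0 and 5. Of 5 pan-neuronal markers, Tubb3 was called higher in PVN of HFD-fed Nnat+/+ males. In chow-fed Nnat+/-p males Snap25, Syt1 and Rbfox3 were called lower. Of 6 forebrain excitatory markers 3 and 5 were called, in both directions, and of 5 ependymal and tanycyte markers 2 and 3. Their part in the members' differences was not tested.

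Fosl2 had the smallest p of the members in both comparisons. It was at 6.08 to 55.6 CPM in HFD-fed Nnat+/+ PVN, with a median of 39.3, and at 3.72 to 12.3 in ARC, with a median of 6.47. The PVN values in the ARC range were those of library 24 and of library 23, at 11.5 CPM. The log2 fold change was 2.23 (SE 0.393, adjusted p = 0.000132, edgeR), or 2.45 (SE 0.369) without library 24. In chow-fed Nnat+/-p males Fosl2 was at 30.9 to 68.1 CPM in PVN and 2.89 to 12.0 in ARC, without overlap, with a log2 fold change of 2.88 (SE 0.355, adjusted p = 4.21e-08, edgeR). Library 15, the chow-fed Nnat+/+ PVN library that lacked PVN markers, had 2.35 CPM of Fosl2.

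Jun was at 36.5 to 79.3 CPM in HFD-fed Nnat+/+ PVN and 22.6 to 55.1 in ARC, with medians of 64.9 and 30.4, and at 39.9 to 108 and 22.7 to 38.9 in chow-fed Nnat+/-p males. Only the second pair of ranges was apart, and the log2 fold changes were 0.87 (SE 0.221, adjusted p = 0.0132, edgeR) and 1.07 (SE 0.2, adjusted p = 0.000134, edgeR). Fos, at 4.63 to 37.6 CPM in PVN and 5.48 to 13.8 in ARC of HFD-fed Nnat+/+ males, was higher in PVN with log2 fold changes of 1.18 (SE 0.37, adjusted p = 0.0707, edgeR) and, in chow-fed Nnat+/-p males, 1.40 (SE 0.338, adjusted p = 0.00377, edgeR). Egr1 was higher in PVN in both, by 1.18 (SE 0.351, adjusted p = 0.0479, edgeR) and 0.73.

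Klf4, a zinc finger factor better known from stem cells and vessels, was at 4.52 to 11.6 CPM in PVN and 0.238 to 3.16 in ARC of HFD-fed Nnat+/+ males. These ranges were apart, and the log2 fold change was 2.29 (SE 0.615, adjusted p = 0.0222, edgeR) and 1.90 (SE 0.537, adjusted p = 0.016, edgeR) in chow-fed Nnat+/-p males. Btg2 was also higher in PVN in both, at 1.05 (SE 0.42, adjusted p = 0.23, edgeR) and 0.88. Plk2, a kinase of synaptic scaling, was called only in HFD-fed Nnat+/+ males, at 36.4 to 67.9 CPM in PVN against 17.8 to 41.6 in ARC and a log2 fold change of 0.81 (SE 0.222, adjusted p = 0.0274, edgeR), and whether this differed from the chow-fed males was not tested.

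Members called higher in PVN of chow-fed Nnat+/-p males alone were Fosb, Nr4a1, Npas4, Inhba, Dusp1, Dusp5, Ier2, Gadd45b and Rgs2, and whether they differed from the HFD-fed males was not tested. Nr4a1 was at 6.76 to 51.0 CPM in PVN and 2.00 to 9.92 in ARC (log2 fold change 1.45, SE 0.414, adjusted p = 0.0176, edgeR). Inhba, which encodes the activin A subunit, was at 3.56 to 14.2 and 0 to 4.58 CPM (2.18, SE 0.561, adjusted p = 0.00717, edgeR). Both overlapped between nuclei. The log2 fold changes of the rest lay between 0.39 for Rgs2 and 1.55 for Fosb, and that of Npas4, 1.00 (adjusted p = 0.227, edgeR), was -0.0027 with limma-voom.

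Fewer members were higher in ARC. Nr4a2 was at 5.85 to 14.9 CPM in ARC and 0.564 to 3.72 in PVN of HFD-fed Nnat+/+ males, without overlap, with a log2 fold change of -2.45 for PVN against ARC (SE 0.667, adjusted p = 0.0247, edgeR). In chow-fed Nnat+/-p males it was at 0 to 6.83 CPM in ARC and 0.173 to 6.22 in PVN and was not called. Klf6, a further zinc finger factor, was at 23.4 to 33.3 CPM in ARC and 12.8 to 27.5 in PVN of HFD-fed Nnat+/+ males (-0.61, SE 0.231, adjusted p = 0.186, edgeR).

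In chow-fed Nnat+/-p males, Crtc1 was at 51.8 to 126 CPM in ARC and 23.7 to 50.4 in PVN, without overlap, with a log2 fold change of -1.19 (SE 0.186, adjusted p = 5.69e-06, edgeR). Homer1, a postsynaptic scaffold with a short activity-induced form that these gene counts do not separate, was at 33.8 to 61.3 CPM in ARC and 14.2 to 35.5 in PVN (-0.77, SE 0.224, adjusted p = 0.0201, edgeR). Srf, at -0.49, and the stress sensor Gadd45g, at -1.17, were also called lower in PVN.

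DESeq2 called 10 and limma-voom 18 members in HFD-fed Nnat+/+ males, and 21 and 16 in chow-fed Nnat+/-p males. Without libraries 15 and 24 the first count was 10, and without library 26 it was 5. The second was 8 at an adjusted p of 0.05. Leaving out library 24 also gave log2 fold changes in HFD-fed Nnat+/+ males of 0.98 for Jun, 1.2 for Fos, 1.3 for Egr1, 2.4 for Klf4, 1.18 for Btg2, 0.82 for Plk2, -2.65 for Nr4a2 and -0.77 for Klf6, and each was still called by edgeR. Where PVN and ARC libraries shared a labelled weight, a fit with that weight as a block called 14 members in HFD-fed Nnat+/+ males, and the same libraries without the block also gave 14.

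Over the 19 comparisons, 7 members were neither called nor at an unadjusted p under 0.05 (edgeR). They were Egr2, the stress-induced factor Atf3, the small MAF factor Maff, the bZIP repressor Nfil3, the CREB-related Crem, and Ier3 and Ier5. Egr2, Atf3, Maff and Ier3 were at 0 in at least 1 library, whereas Crem ran from 1.17 to 20.9 CPM over the 49 libraries.

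**Figure D4:**
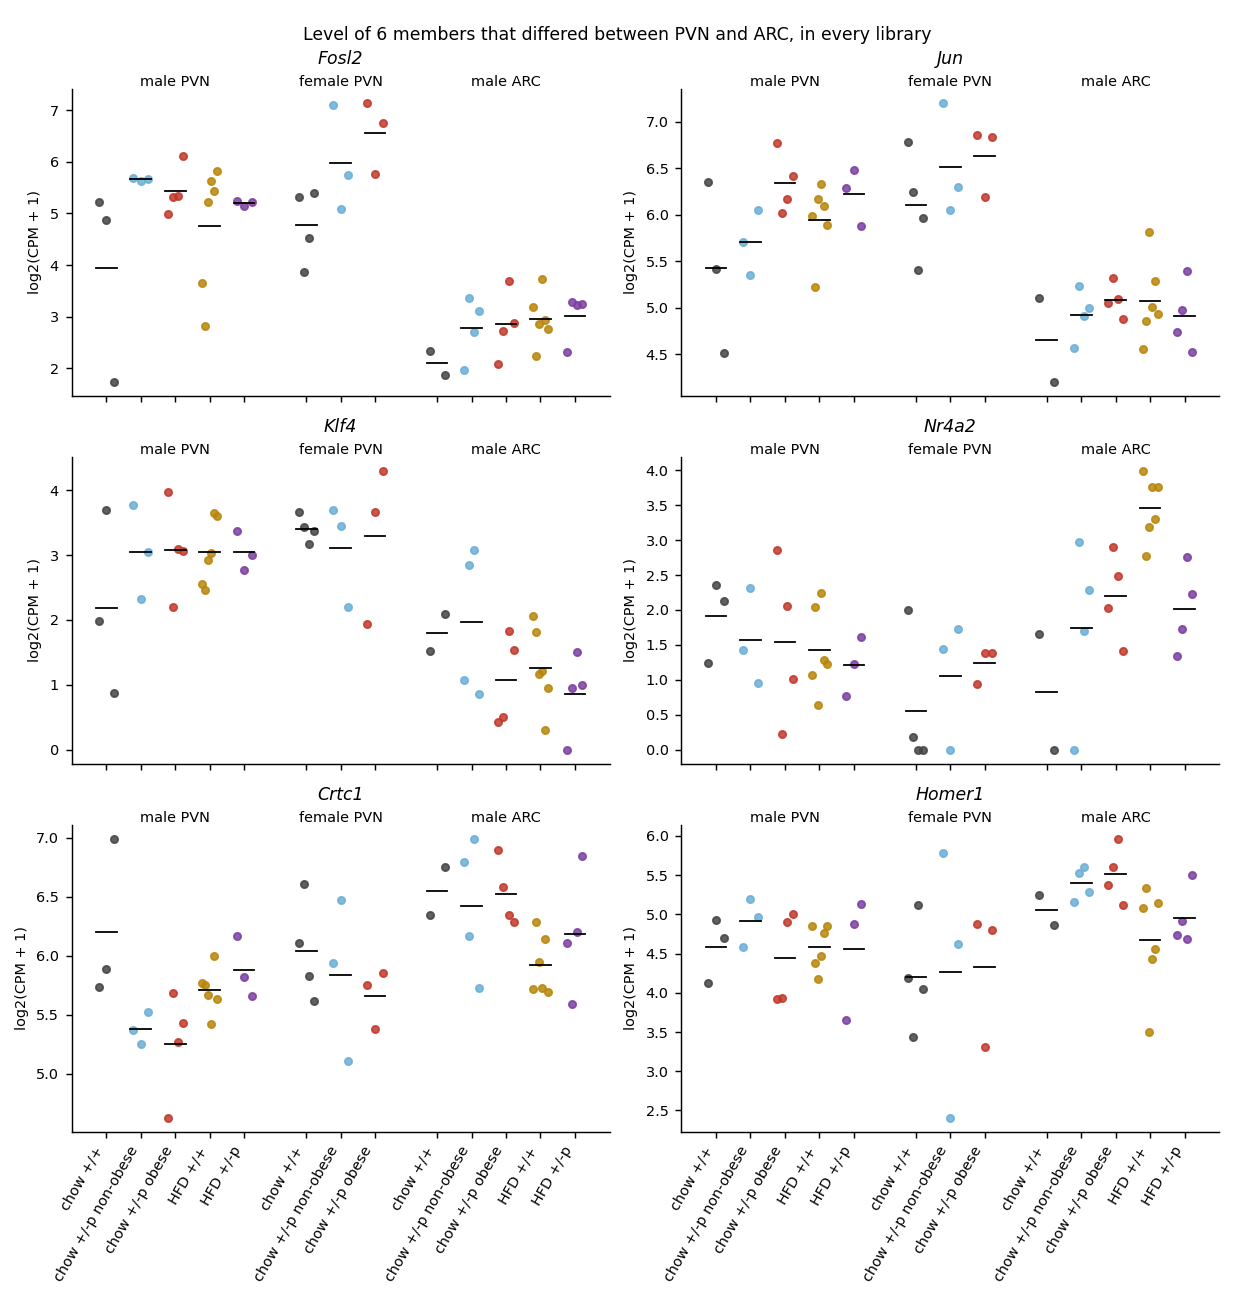
Levels of Fosl2, Jun, Klf4, Nr4a2, Crtc1 and Homer1 in each library as log2(CPM + 1), by group. Points are libraries and bars are group means of the log values. Fosl2 is at 30.9 to 68.1 CPM in chow-fed Nnat+/-p male PVN and at 2.89 to 12.0 CPM in the matching ARC libraries, and Nr4a2 in HFD-fed Nnat+/+ ARC (5.85 to 14.9 CPM) is above the matching PVN libraries.

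Further lists set these values beside related genes. The background shares given above apply to them too. Of 30 other activity-induced genes, 29 were tested for female obese Nnat+/-p against Nnat+/+, with 0 called, 2 higher at unadjusted p under 0.05 and a median log2 fold change of 0.432. In male PVN obese against Nnat+/+ the median was 0.36, with 0 called and 1 higher and 1 lower at unadjusted p under 0.05. HFD against chow in Nnat+/+ called Ier5l in PVN and Nptx2, Pcsk1 and Rasgrp1 in ARC, and HFD-fed against obese chow-fed Nnat+/-p ARC called Mcl1. PVN against ARC called 2 of 29 (Nrn1 and Rasgrp1) in HFD-fed Nnat+/+ males, beside 6.95% of all genes, and 11 of 29 in chow-fed Nnat+/-p males, beside 31.2%, which are shares near those of all genes.

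Of 22 upstream signalling genes, such as receptors, channels and kinases that carry activity to the nucleus, none was called in a genotype or diet comparison by edgeR. Between nuclei 6 were called in HFD-fed Nnat+/+ males (2 higher and 4 lower in PVN), beside 6.95% of all genes, and 14 in chow-fed Nnat+/-p males, beside 31.2%. In the latter 13 were lower and 1 higher in PVN at unadjusted p under 0.05, and the median was -0.493. Of 7 heat shock genes, Hsph1 alone was called, for PVN against ARC in chow-fed Nnat+/-p males, and the median for female obese Nnat+/-p against Nnat+/+ was 0.514 with 1 at unadjusted p under 0.05.

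Whether members moved together from library to library was described by the Pearson r between pairs of members after group means were subtracted. Over 820 pairs the median r was 0.0645 (jackknife SE 0.039) in 19 male PVN libraries, 0.227 (SE 0.19) in 10 female PVN libraries and 0.0277 (SE 0.032) in 20 ARC libraries. Over pairs of all genes it was 0.0043, 0.0675 and 0.0167. The pairs above 0 were 58.4%, 68.3% and 53.3%, beside 50.5%, 54.6% and 52.2% of pairs of all genes, so the ARC share was near that of all genes. Members share libraries and depth, and the female value was 0.0423 without library 9 and 0.281 without library 3.

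Members were also ranked by the lowest r of the 3 tables, and values from the top of that ranking follow as a description. Fosl2 had r of 0.517, 0.786 and 0.46 with the mean of the other 40 members in male PVN, female PVN and ARC, Egr4 0.442, 0.508 and 0.516, and Egr1 0.528, 0.377 and 0.534. Arc had 0.766, 0.545 and 0.377, Egr3 0.618, 0.436 and 0.41, and Maff 0.462, 0.505 and 0.397. Crtc1, present without stimulation, ran against the others in male PVN at -0.538 and was near 0 elsewhere, at -0.0435 and 0.0509. Among 15157 genes outside the list, those with the highest lowest r to the module mean were Abl1 (0.73, 0.58 and 0.609), Cdhr3, Tspan18, Trp63 and Dnah6, whose lowest r ran down to 0.526. Each of these lay above the highest lowest r of a member, 0.46 for Fosl2.

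The module mean also followed measures of the libraries, after group means were subtracted. In female PVN its r was 0.953 with the number of genes detected, 0.764 with log2 total count, 0.872 with PVN markers and -0.667 with the mitochondrial share over 10 libraries. In male PVN it was -0.722 with log2 total count and 0.34 with genes detected over 19 libraries. In ARC it was -0.409 with log2 total count over 20 libraries. Total count and module mean ran in opposite directions in male and female PVN, and the part of depth in the group values was not tested.

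**Figure D5:**
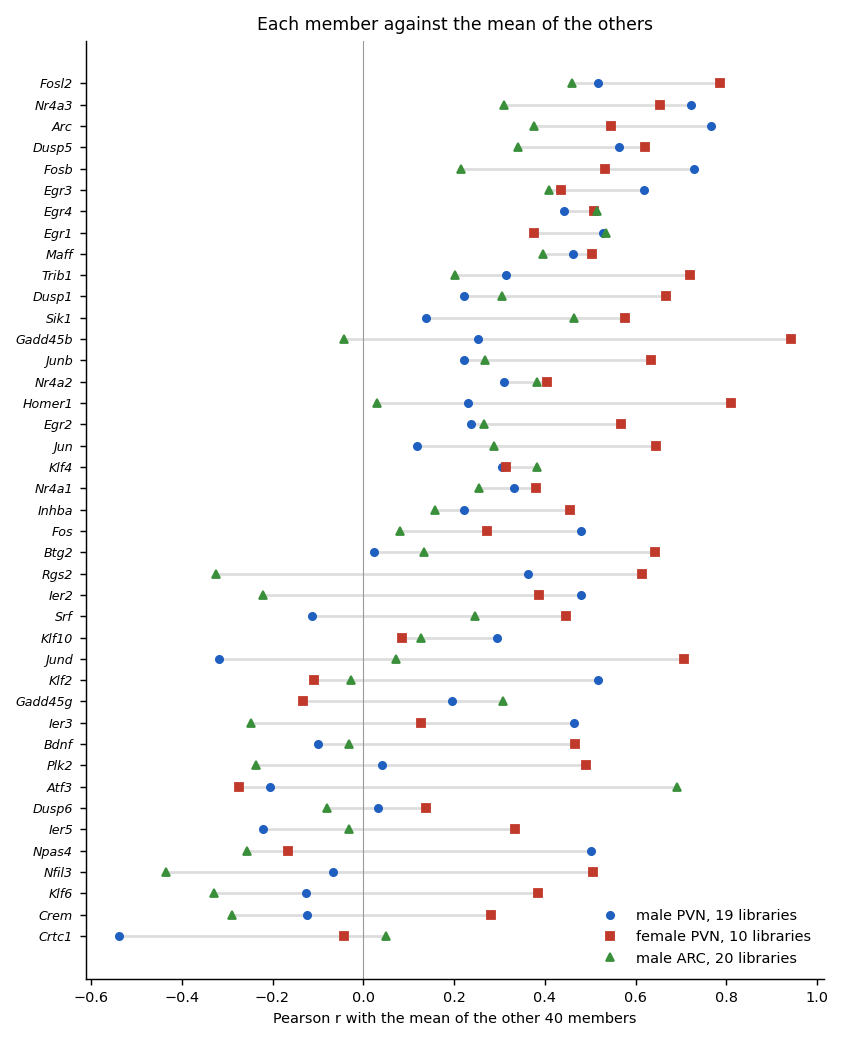
Pearson r of each of 41 members with the mean of the other 40, after group means were subtracted, in male PVN (19 libraries), female PVN (10) and male ARC (20). Each point is a member. Fosl2 (0.517, 0.786 and 0.46) and Egr4 (0.442, 0.508 and 0.516) are high in every table, and Crtc1 is at -0.538 in male PVN.

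A weight, genotype and diet shared by a PVN and an ARC library was unique in both nuclei for 15 pairs, although the labels do not say that such a pair is 1 mouse. After group means were subtracted, the median r of members between nuclei was 0.116 (jackknife SE 0.18), beside 0.0828 over all genes, and 28 of 41 members were above 0. Btg2 (0.791), Nr4a3 (0.741), Fosb (0.724) and Egr1 (0.713) had the highest values. The module mean itself had r = 0.61 over these 15 pairs. A mean of many genes and a median over single genes are different measures and cannot be set side by side. No value for the mean of all genes, and no share of all genes above 0, is given beside these. These are descriptions of libraries that share cutting and weight labels, with no test.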

How the data were processed

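RNA from laser-captured PVN and ARC was sequenced as single-end 50-base reads from SMARTer Stranded Total RNA-Seq Pico v2 libraries. Per the submitters' notes the authors aligned with STAR 2.5.0a to GRCm38. The deposited counts are raw reads per Ensembl gene, in 3 tables (male PVN, female PVN, male ARC), and the counting tool and strand setting are not given in the sources used here. Samples 5, 7, 32 and 35 were left out, which leaves 49 of 53 libraries, with 1479953 to 30228973 counts each.

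Symbols were available for 53274 of 53379 genes. The main test was edgeR 4.0.16 (R 4.3.3) quasi-likelihood with TMM scaling, filterByExpr with a count minimum of 10, and Benjamini-Hochberg adjustment over all genes tested, called at adjusted p under 0.25. Chow comparisons were fitted over the 3 chow-fed groups of a table, diet comparisons over its 5 male groups and nucleus comparisons over all 10 male groups. CPM used TMM totals, and module means log2 CPM with prior count 2. DESeq2 1.42.0, limma 3.58.1 voom, other filters, scaling and thresholds, and leaving out each library were alternatives. Scripts were tested on simulated data. The members and gene lists were chosen with earlier results of these data known. Members may all be named, with values in every library for 11 fixed activity genes and called members, and folds for called members or the 2 smallest p. Other genes are named only where called, as checks, or for the 5 closest to the module mean. Promoters shown are the 4 members, among those with a single window, whose lowest r with the module mean over the 3 tables was highest. They were thus picked by values of these data.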

Additional observations from a re-analysis of the deposited data

Results flagged for a closer look

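In groups of 4 to 6 libraries, 10 of 182 sets of values had 1 library far from the others by Dixon's criterion, and chance flags about 1 in 20 groups, so a number of this size carries no pattern by itself. In HFD-fed Nnat+/+ PVN, Fos was at 4.63 CPM in library 23 against 20.1 to 37.6 in the others, Gadd45b at 0 in library 28 against 1.58 to 2.52, and Srf at 22.7 in library 27 against 9.91 to 12.6. In obese chow-fed Nnat+/-p male PVN, Fosb was at 0.863 CPM in library 17 against 12.6 to 17.0. In HFD-fed Nnat+/+ ARC, Fosb was at 0 CPM in library 44 against 2.14 to 4.85, Npas4 at 0.931 in library 49 against 1.91 to 2.5, and Btg2 at 2.32 in library 45 against 5.01 to 7.68. In HFD-fed Nnat+/-p ARC, library 50 had Egr3 at 0 CPM against 3.39 to 5.86 and Fosl2 at 3.97 against 8.34 to 8.77. In female Nnat+/+ PVN, Inhba was at 8.88 CPM in library 2 against 3.53 to 3.97.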

How the results depend on the processing

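Of 324 recounts of members called, 279 stayed within 1.5 times the main count, 35 were larger and 10 smaller. With every gene over a total count of 1 tested, members called were 1 for male PVN obese against Nnat+/+, 5, 2 and 3 for the female PVN pairings (obese and non-obese against Nnat+/+, obese against non-obese), 5 for male PVN HFD against chow, 1 for HFD-fed Nnat+/-p against Nnat+/+ PVN, 3 for HFD-fed against obese chow-fed Nnat+/-p PVN, 1 for the PVN diet difference of the genotype effect, and 2 for each of the ARC HFD against chow and HFD-fed against obese chow-fed Nnat+/-p comparisons. DESeq2 called 1, 1, 4 and 2 for male PVN obese against Nnat+/+, the same in females, and HFD-fed against obese chow-fed Nnat+/-p in PVN and ARC. Voom called 2 in female obese against Nnat+/+, 2 in HFD-fed against obese chow-fed Nnat+/-p PVN, 3 in ARC HFD against chow and 18 between nuclei on HFD. With all labelled libraries, shallow ones included, counts were 4 and 2 in female obese against Nnat+/+ and non-obese and 2 in ARC HFD against chow, and the median member r was 0.552 in female PVN and 0.278 in ARC. With only the compared groups fitted, counts were 1 and 2 for HFD-fed against obese chow-fed Nnat+/-p in PVN and ARC and 3 for ARC HFD against chow. At adjusted p 0.05, PVN HFD against chow had 0 and the nuclei in chow-fed Nnat+/-p males 8. PVN HFD against chow had 0 without libraries of conflicting weight labels, 4 without library 15 and 4 without libraries 15 and 24, an alternative chosen after seeing the data. The replicate block by labelled weight gave 14 members between nuclei on HFD, and no block on the same libraries 14. Leaving out 1 library, counts ran from 0 to 4 (PVN HFD against chow), 0 to 1 and 0 to 2 (HFD-fed against obese chow-fed Nnat+/-p, PVN and ARC), 0 to 2 (ARC HFD against chow), 5 to 10 and 14 to 21 (nuclei). A prior count of 0.5 moved the module mean to 2.05 in female Nnat+/+ PVN and 2.03 in HFD-fed Nnat+/-p ARC, and DESeq2 size factors moved the male PVN median r to 0.123. Npas4 between nuclei in chow-fed Nnat+/-p males reversed to -0.0027 with voom. The cause of these differences was not tested. With 2 to 6 libraries a group, low-count members such as Ptgs2, Egr2 and Dusp5 rest on few reads. Where a chow-fed Nnat+/+ ARC library is left out, the lone library is assumed to vary like the other groups.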

Other observations

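Library 32, labelled ARC but held in the PVN table, was put in no group. Its levels were 262 CPM of Avp, 553 of Oxt, 151 of Sim1, 2.32 of Pomc and 0.773 of Agrp. Among members it had Fos at 31.7 CPM, Egr1 at 102, Nr4a1 at 37.0, Fosl2 at 39.8 and Btg2 at 28.0 CPM.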
